A study of Sus scrofa with 2 samples.

Results

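Of 7 gene families with many members restricted to particular tissues (interleukins and their receptors, GPR receptors, collagens, cytochromes P450, phosphodiesterases, Kelch-like proteins and keratins), 8 genes had a ZBTB16 peak at the promoter in both CUT&Tag libraries of pig spermatogonia. These were CYP51, COL16A1, GPR107, GPR108, GPR155, IL17RD, IL6ST and KLHL13. The 7 families hold 325 annotated protein-coding genes, of which 8 are 2.46%, against 20.8% of all 16491 protein-coding genes with a symbol. The families had been picked for their low promoter shares in these same peak lists, so the low share describes the choice and nothing is read from it. What follows is which members had peaks, where they lay and how strong they were.

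Members were taken by gene symbol. Every peak that the authors assigned to a gene beginning with IL, GPR, CYP, PDE, KLHL or KRT and a digit, or named as a collagen alpha chain (COL, a number, A, a number), was included, whatever its annotation class. CYP11A1, CYP17A1 and CYP26B1 were left out. This gave 81 of 10273 peaks at 72 genes in replicate 1 and 55 of 7301 peaks at 53 genes in replicate 2. Together 92 genes had a peak in at least 1 library and 33 had one in both.

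ZBTB16 (PLZF) is a DNA-binding zinc finger protein found in undifferentiated spermatogonia, the cells that keep sperm production going. CUT&Tag directs a transposase to a chromatin protein with an antibody and sequences the fragments that are released. Both libraries were made from WT pig testis, from 100000 immature spermatogonia each, and no treatment is labelled. They form 1 group, so no condition was compared, and separate animals or cultures are not stated. The lists hold binding sites and no expression values, so the labelled cell type could not be checked against marker levels, and an IgG control was not analysed here. Each fold enrichment below is the authors' value of a peak over local background. Fragments at a summit were recovered from that fold and its p-value, and positions are on Sscrofa11.1. No test of members against other genes was made.

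The families differ in what their products do. Interleukins are secreted signals of immune cells and are read by paired receptor chains on the target cell. GPR genes encode G protein-coupled receptors, many without a known ligand, and some proteins of internal membranes that carry the same prefix. Collagens build extracellular matrix, keratins the filaments of epithelial cells, and cytochromes P450 oxidise steroids, vitamins and foreign compounds. Phosphodiesterases break down cyclic AMP and cyclic GMP. Kelch-like proteins carry substrates to the ubiquitin ligase built on CUL3.

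Each family except the keratins had members with peaks in both libraries. Kelch-like genes had an assigned peak in both libraries at 7 of 37 genes, GPR genes at 9 of 72, phosphodiesterases at 3 of 25, cytochromes P450 at 4 of 35, interleukin genes at 8 of 78 and collagens at 2 of 43. Keratins had none in both libraries among 35 genes. Differences between families were not tested. The 95% Wilson intervals of all 7 families overlap, those of keratins (0 to 9.89%) and Kelch-like genes (9.48 to 34.2%) only narrowly. Such overlap does not show that the families are alike. Over the 7 families this came to 33 of 325 genes (10.2%), against 28.2% of all genes. A promoter peak in at least 1 library was found at 38 members (11.7%), against 36.9% of all genes. A peak of any class in at least 1 library was assigned to 92 members (28.3%), against 50.7% of all genes. Among phosphodiesterases that share was 11 of 25 genes (44.0%, 95% Wilson interval 26.7 to 62.9). Among keratins it was 1 of 35 (2.86%, 0.506 to 14.5). Members without any assigned peak included IL10, GPR1, COL10A1, CYP19A1, PDE11A, KLHL10 and KRT1.

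**Figure D1:**
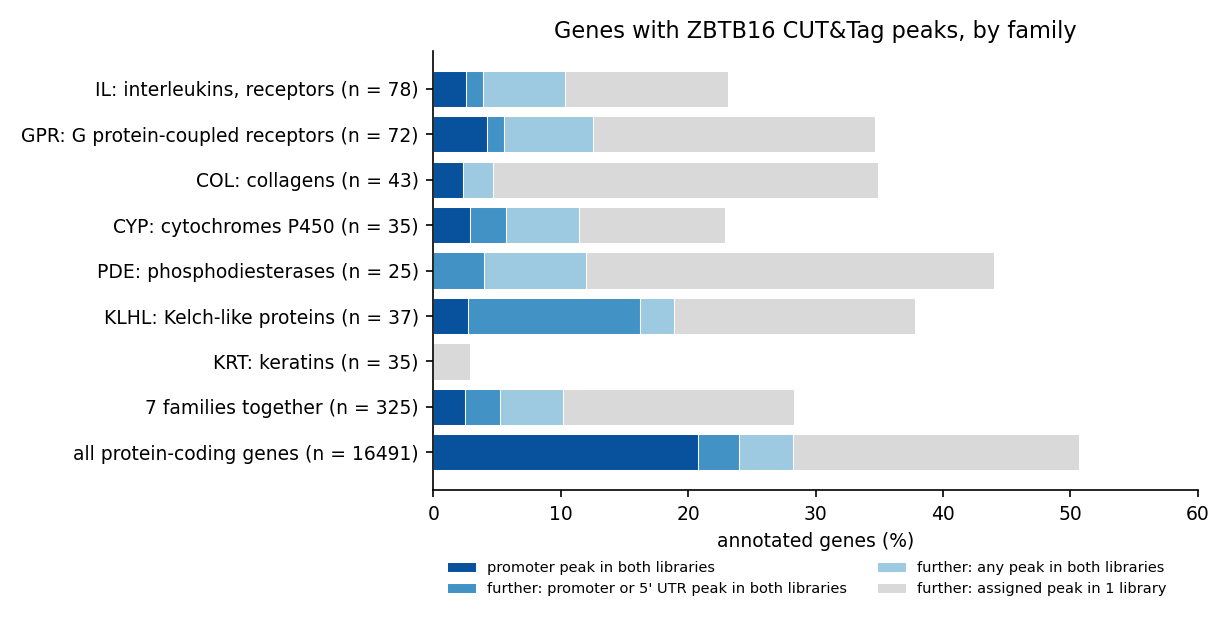
Share of annotated genes of each family with assigned peaks (x axis, percent), with the 7 families together and all protein-coding genes in the last rows. Segments add up from the left, from a promoter peak in both libraries to a peak in 1 library. Kelch-like genes had the longest second segment, which adds genes with a promoter or 5′ UTR peak in both libraries, and keratins showed a single gene.

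Across classes, 32 of the 81 member peaks of replicate 1 lay in the promoter class (39.5%), against 60.8% of all its peaks. In replicate 2 it was 15 of 55 (27.3%), against 64.0%. The promoter class here reaches from the transcription start site (TSS) to about 3 kb upstream by the nearest edge of the peak. The TSS is that of the assigned transcript. It can lie inside the annotated gene, as at PDE4C, IL4R and PDE4B, and is then not the outer start of the gene. In replicate 1, 11 member peaks were in 5′ UTRs, 10 in exons, 14 in introns, 12 in distal intergenic sequence and 2 in 3′ UTRs. In replicate 2, 12 were in 5′ UTRs, 7 in exons, 8 in introns, 10 distal, 2 in 3′ UTRs and 1 downstream of a gene. Since families were chosen on promoter shares, these class shares are a description.

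The same site was found in both libraries for 30 of the 81 replicate 1 member peaks (37.0%), against 53.2% of all replicate 1 peaks, and for 30 of the 55 of replicate 2 (54.5%), against 75.0%. The 30 sites lay at 29 genes, 8.92% of the 325, against 26.7% of all genes with overlapping peaks. At all 30 sites both libraries named the same gene. Of the 30, 8 were promoter peaks in both libraries, 5 were promoter peaks in replicate 1 and 5′ UTR peaks in replicate 2, and 5 were in 5′ UTRs in both. Another 5 were exonic in both, 2 intronic in both, 2 distal in both, 1 in a 3′ UTR in both, and 2 were called 5′ UTR in one library and intron in the other. The class differed between libraries at 7 of the 30 sites (23.3%), against 8.12% of all overlapping peaks. The fold was higher in replicate 1 at 16 of the 30 sites.

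By class, 5′ UTR peaks of members recurred at 6 of 11 in replicate 1 (54.5%, against 51.2% of all 5′ UTR peaks) and at 11 of 12 in replicate 2 (91.7%, against 77.8%). Exonic member peaks recurred at 5 of 10 (50.0%, against 35.4%) and 5 of 7 (71.4%, against 63.9%) in replicates 1 and 2. Intronic ones recurred at 3 of 14 (21.4%, against 22.6%) and 3 of 8 (37.5%, against 39.4%). Distal ones recurred at 2 of 12 (16.7%, against 25.3%) and 2 of 10 (20.0%, against 41.9%). With so few peaks a class, the 95% Wilson intervals of the members held the value of all peaks in each of these comparisons.

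**Figure D2:**
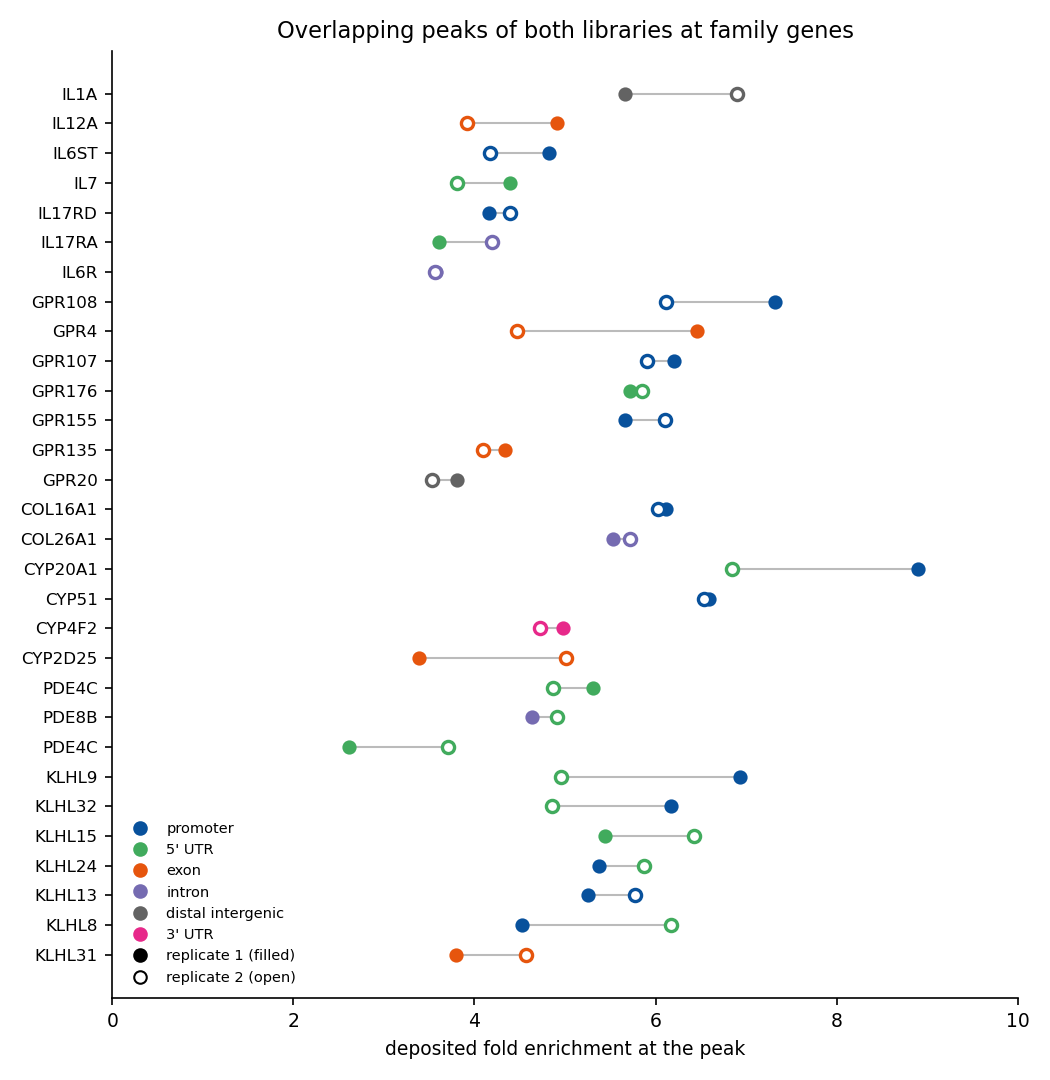
Deposited fold enrichment (x axis) of the 30 member peaks that overlapped between the libraries, 1 row per site, grouped by family. Filled points are replicate 1, open points replicate 2, and colours give the class in each library. Values lay between 2.61 and 8.9 in replicate 1, with CYP20A1 highest, and colours differ within a row at 7 sites.

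Among cytochromes P450, CYP51 had a promoter peak in both libraries, and CYP20A1 had one in replicate 1 that overlapped a replicate 2 peak. CYP51 encodes the lanosterol demethylase of cholesterol synthesis, an enzyme that most cells need and that also makes sterols studied in meiosis. Its peak spanned the TSS on chromosome 9 (72078588 to 72079673 in replicate 1), at 6.59-fold from 31 fragments in replicate 1 and 6.54-fold from 24 in replicate 2. The exact 95% Poisson intervals, 21.1 to 44.0 and 15.4 to 35.7 fragments, overlap. CYP20A1, a P450 with no known substrate, had the highest fold of any member, 8.9-fold from 30 fragments in replicate 1 (chromosome 15, 106696645 to 106697048) and 6.84-fold from 19 in replicate 2. That peak stood at percentile 97.2 among all promoter peaks of replicate 1. In replicate 2 its edge began 26 bp downstream of the TSS, and it was listed as 5′ UTR.

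The other P450 sites found in both libraries lay inside or at the 3′ end of genes of the drug and vitamin metabolising group. CYP2D25, a vitamin D hydroxylase in pig, had a peak in exon 3 of 9 at 3.39-fold and 5.01-fold in replicates 1 and 2. CYP4F2, a fatty acid hydroxylase, had one listed as 3′ UTR at 4.98-fold and 4.72-fold. In replicate 1 its summit lay just beyond the annotated end of the gene. Genes of the CYP2 and CYP4 groups can have near-identical copies, and how reads shared between copies were placed is not stated. CYP2B22 (4.98-fold, 2511 bp upstream) and CYP4F55 (3.78-fold) had peaks in replicate 1 alone, and CYP2R1, another vitamin D hydroxylase, had a promoter peak in replicate 2 alone (4.44-fold from 9 fragments).

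In the GPR group, GPR107, GPR108 and GPR155 had promoter peaks in both libraries. GPR108, a Golgi protein, had the tallest member peak by fragments, with 70 in replicate 1 (interval 54.6 to 88.4) and 43 in replicate 2 (31.1 to 57.9). Its fold was 7.32 and 6.11 (chromosome 2, 72417914 to 72418593), over a local background of 8.7 and 6.21 fragments, where the median background of all promoter peaks was 2.66 and 2.18. GPR107, a related Golgi protein, had 6.2-fold and 5.9-fold from 22 and 16 fragments (chromosome 1, 270190164 to 270190768). GPR155, a lysosomal cholesterol sensor in human cells, had 5.66-fold and 6.1-fold from 20 and 17 fragments (chromosome 15, 80461705 to 80462595). GPR137, a lysosomal membrane protein, had a promoter peak in replicate 2 alone (5.39-fold from 18 fragments), and its relative GPR137B a distal one there (4.91-fold).

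Other GPR promoter peaks were each in 1 library. In replicate 1 these were at GPR39, a zinc-sensing receptor (5.06-fold from 11 fragments), GPR173 (4.03-fold from 8), GPR37 (4.01-fold from 12) and GPR3, an activator of cyclic AMP signalling known for holding oocytes in meiotic arrest in mouse (3.15-fold from 12). The GPR3 peak stood at percentile 0.672 among promoter peaks of its library. Sites in other classes that recurred were the single exon of GPR135 (4.34-fold and 4.09-fold), a 5′ UTR of GPR176 (5.72-fold and 5.85-fold, 9506 bp from the TSS in replicate 1) and a distal site near GPR20 (3.81-fold and 3.53-fold). The peak assigned to GPR4, a proton-sensing receptor, was exonic in EML2, 10612 bp upstream of GPR4 (6.46-fold and 4.47-fold). Of the peaks in 1 library, GPR84 (5.64-fold), GPR31 (5.63-fold) and GPR63 (5.59-fold) were the strongest of the GPR group.

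The interleukin promoter peaks found in both libraries were at the receptor chains IL6ST and IL17RD. By symbol, 40 of the 78 IL genes encode receptor chains and 36 ligands or antagonists, a split made after the values were seen. Promoter peaks in both libraries were at 2 of the 40 receptor chains and 0 of the 36 ligands, against 20.8% of all genes. In at least 1 library they were at 7 receptor chains and 1 ligand (IL17B), against 36.9%. The difference between receptor chains and ligands was not tested. IL6ST (gp130), the signalling chain shared by the receptors of the interleukin-6 group, had 4.82-fold from 16 fragments in replicate 1 and 4.17-fold from 10 in replicate 2 (chromosome 16, 35151647 to 35151931). IL17RD (SEF), which restrains FGF and MAPK signalling, had 4.16-fold and 4.39-fold from 13 and 11 fragments (chromosome 13, 39006560 to 39007031). Both lay low among promoter peaks: IL6ST at percentiles 34.4 and 13.7, and IL17RD at 15.1 and 21.1.

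Other receptor chains had peaks too, among them IL6R, IL11RA and IL27RA, which signal through IL6ST. IL6R, the chain that binds interleukin-6, had a peak in intron 1 in both libraries (nearest edges 289 and 287 bp from the TSS, 3.58-fold and 3.56-fold). IL11RA had a promoter peak in replicate 2 alone (4.84-fold from 16 fragments). IL27RA (4.33-fold from 12) and IL31RA (6.08-fold from 13) had promoter peaks in replicate 1 alone. IL17RA, a chain of the interleukin-17 receptors, had adjoining peaks of 3.61-fold and 4.19-fold whose summits lay 741 bp apart, the widest gap of the 30 sites. IL4R and IL1RAP had promoter peaks in replicate 1 alone, at 4.15-fold and 4.41-fold.

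Of the ligands, IL7, a growth factor of lymphocytes, had a 5′ UTR peak in both libraries (4.39-fold from 12 fragments and 3.81-fold from 8). The distal peak assigned to IL1A lay 17625 bp upstream of it (chromosome 3, 43700097 to 43700695) and had 5.66-fold and 6.9-fold from 15 and 17 fragments. The 6.9-fold value was the highest member fold of replicate 2. The peak assigned to IL12A was 230124 bp upstream, exonic in the uncharacterised LOC100514494 (4.91-fold and 3.92-fold). IL17B had peaks in both libraries at different places, 2 in the promoter class in replicate 1 and 2 distal ones in replicate 2.

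Kelch-like genes held 5 of the 13 member promoter peaks of replicate 1 that recurred, more than any other of the 7 families. KLHL13 was called promoter in both libraries, while KLHL9, KLHL8, KLHL24 and KLHL32 were called promoter in replicate 1 and 5′ UTR in replicate 2. With 5′ UTR peaks counted too, 6 of 37 Kelch-like genes were called in both libraries (16.2%, Wilson interval 7.65 to 31.1) and 17 of 325 members (5.23%), against 24.0% of all genes. The sixth, KLHL15, had its peak far from its start. KLHL9 and KLHL13 act together with CUL3 on the mitotic kinase Aurora B in human cells. KLHL9 had 6.93-fold from 21 fragments in replicate 1 (chromosome 1, 201591513 to 201592021) and 4.96-fold from 11 in replicate 2. KLHL13 had 5.25-fold and 5.77-fold, from 12 fragments in each (chromosome X, 96949957 to 96950248 in replicate 1).

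KLHL24, whose human protein controls keratin turnover in skin, had the Kelch-like peak with most fragments, 27 and 22, at 5.38-fold and 5.87-fold. KLHL8 had 4.52-fold and 6.17-fold, and KLHL32 had 6.17-fold and 4.86-fold. In replicate 2 the nearest edges of these peaks and of KLHL9 were 15 to 74 bp downstream of the TSS. KLHL31, known from muscle, had a peak in exon 3 of 3 at 3.8-fold and 4.57-fold from 8 and 9 fragments. KLHL20 (5.8-fold) and KLHL26 (5.18-fold) had promoter peaks in replicate 2 alone, and KLHL12 (4.51-fold) and KLHL2 (4.49-fold) in replicate 1 alone. KLHL11 had an exon 1 peak of 5.16-fold in replicate 1 alone.

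**Figure D3:**
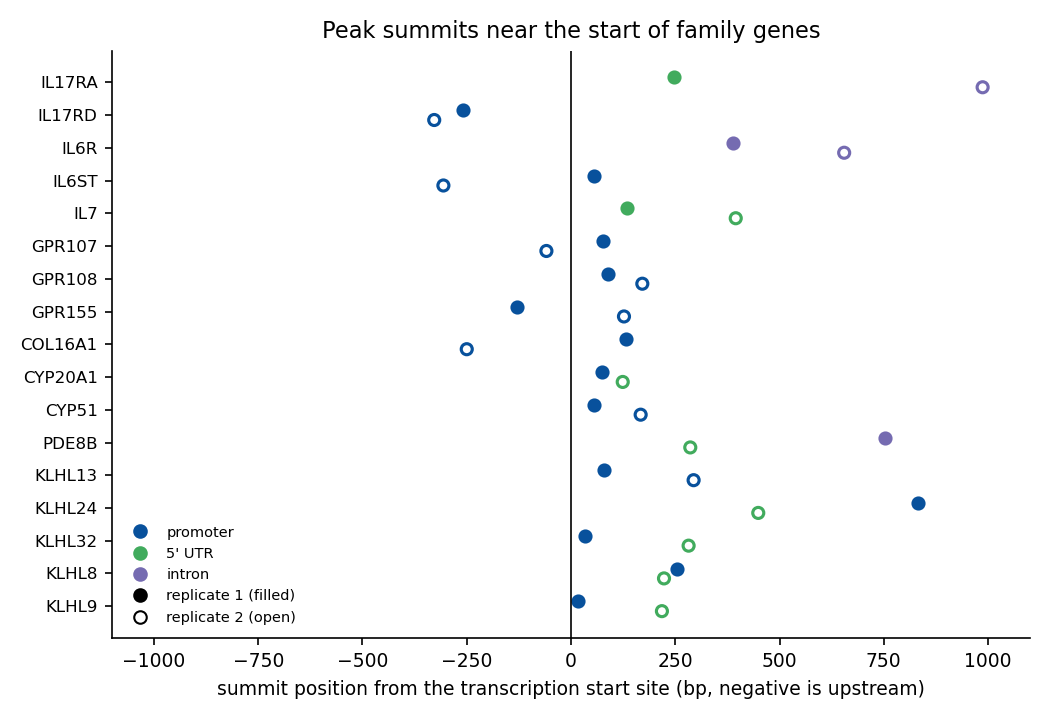
Summit position from the TSS of the assigned transcript (x axis, bp, negative is upstream) at the 17 members with a summit within 1000 bp in both libraries. Filled points are replicate 1, open points replicate 2, and colours are classes. Summits of CYP51 and GPR108 lie 55 to 171 bp downstream, and those of IL17RD upstream at -260 and -328 bp. At KLHL24, KLHL8 and KLHL32 the libraries used transcripts with different starts.

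Collagens showed 1 promoter in both libraries, that of COL16A1, which encodes a collagen that associates with fibrils. Its peak had 6.12-fold from 26 fragments and 6.03-fold from 21 (chromosome 6, 88243423 to 88244254). COL26A1, described from testis and ovary in mouse, had a peak in intron 2 of 13, 43292 bp from the TSS, at 5.53-fold and 5.72-fold from 17 and 13 fragments. COL5A2 and COL1A2, chains of fibrillar collagens, had promoter peaks in replicate 1 alone, at 6.48-fold from 20 fragments and 4.19-fold from 10. Other fibrillar chains had peaks of other classes in replicate 1 alone, COL5A1 in intron 1 (5.19-fold) and COL2A1 distal (4.49-fold), while COL11A1 and COL11A2 had no assigned peak. COL22A1 had a promoter peak in replicate 2 alone (6.1-fold from 12 fragments), and COL9A1 an exonic one there (6.25-fold).

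The PDE4 group, which acts on cyclic AMP, was singled out among the PDE groups with the values known. It had an assigned peak at 4 of 4 genes in at least 1 library, against 50.7% of all genes. A promoter peak in both libraries was at 0 of 4, against 20.8%. Overlapping peaks of both libraries were at 1 of 4, PDE4C, against 26.7%. Gene length, which gives long genes more room for an assigned peak, was not taken into account. PDE4C carried 2 sites that recurred, both in its 5′ UTR. The first lay 1384 bp from the TSS of its transcript, a start inside the annotated gene, in replicate 1 (chromosome 2, 59585391 to 59586155). It had 5.31-fold from 43 fragments in replicate 1 and 4.87-fold from 30 in replicate 2. The summits of the libraries were 2 bp apart, the closest of the 30 sites. The second lay 4343 bp from the TSS, with 2.61-fold from 20 fragments and 3.71-fold from 22, over backgrounds of 7.03 and 5.2 fragments. PDE8B, another cyclic AMP-specific enzyme, had a peak just inside a start at 4.64-fold and 4.91-fold. PDE4A (3.07-fold) and PDE4B (5.17-fold) had promoter peaks in replicate 1 alone, and PDE4D had 2 intronic ones there, 39680 and 44579 bp from a TSS. PDE7A had a 5′ UTR peak of 4.86-fold in replicate 1 and PDE1B one of 4.99-fold in replicate 2.

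No keratin had a promoter peak in either library (0 of 35, upper 95% Wilson bound 9.89%), against 32.8% of all genes in replicate 1 and 24.9% in replicate 2. The single keratin peak was assigned to KRT8, a keratin of simple epithelia. It was distal, with its edge 23354 bp from the TSS (chromosome 5, 18156633 to 18156923), rested on 11 fragments at 3.76-fold, and was in replicate 1 alone. Keratin genes lie in clusters and are not independent units, so the bound covers counting only. Families were picked for low promoter shares in these same lists. The 0 of 35 therefore describes the choice, and nothing is read from its distance to all genes.

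Some member promoters lay beside the end of another gene, and each peak was assigned to a single gene. The gene table gives no strand, so either end of a neighbouring protein-coding or lncRNA gene was counted when it lay within 1 kb of the member's start. Such an end stood beside 3 of the 8 promoters called in both libraries (37.5%, 95% Wilson bounds 13.7 to 69.4), against 26.6% of all 3438 such genes. They were KLHL13, 46 bp from WDR44, CYP51, 142 bp from the lncRNA LOC102158687, and GPR107, 911 bp from the lncRNA LOC102158087. Among members with a promoter peak in 1 library, COL5A2 overlapped WDR75 by 77 bp and GPR137 lay 182 bp from BAD. GPR176 began 92 bp from EIF2AK4, a kinase of amino acid sensing, whose own promoter peak covered the annotated start of GPR176 in both libraries (5.92-fold and 6.15-fold).

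Other member peaks lay inside a different gene. The summit was within the body of another annotated gene for 11 of 81 peaks in replicate 1 and 9 of 55 in replicate 2. The recurring 5′ UTR peak assigned to KLHL15 (5.44-fold and 6.43-fold) lay 16116 bp upstream of the KLHL15 start, inside EIF2S3, a translation initiation factor gene. The summits at IL6ST lay inside LOC102168151 in both libraries. Besides GPR4 and IL12A, named above, examples in 1 library are IL5 in SLC22A5, PDE2A in ARAP1, CYP21A2 in TNXB, COL4A2 in COL4A1, PDE6A in PPARGC1B and IL23R in C6H1orf141. Others lay in LOC genes (PDE10A, CYP4F55), and some were promoter peaks at a start that lies in or beside another gene (COL5A2, CYP2R1, PDE4A, PDE2A). The nearest edge was more than 10 kb from the TSS for 25 member peaks of replicate 1 and 22 of replicate 2. Neither count is given here for all peaks. They do not show whether such assignments are more common at members than elsewhere in the lists.

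The reverse also occurred. Of the 233 members without an assigned peak, 5 lay within 1 kb of a peak given to a neighbouring gene in both libraries. These were PDE6D beside COPS7B (8.17-fold and 6.54-fold), IL4I1 beside ATF5 (6.18-fold and 4.82-fold), KLHL18 beside KIF9 (5.72-fold and 6.63-fold), KLHL28 beside TOGARAM1 (5.86-fold and 5.23-fold) and CYP39A1 beside SLC25A27 (5.26-fold and 6.23-fold). At PDE6D, IL4I1 and KLHL18 the peak covered the end of the member itself. The like share of all other genes without an assigned peak is not given here, so nothing particular to members is read from it. Counted by position alone, with any assigned gene, 24 of 325 members had a peak within 1 kb of an end in both libraries, against 29.0% of all genes.

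Member peaks had few fragments, and in replicate 1 their recurrence climbed with the fragments, as it did among all peaks. The median member peak had 12 fragments at its summit in both libraries, against 16 and 14 for all peaks of replicates 1 and 2. Member promoter peaks had medians of 13.5 and 14 fragments, against 19 and 16 for all promoter peaks. Their median fold was 4.82 in replicate 1, against 5.33 for all promoter peaks, and 5.77 in replicate 2, against 5.25, so the order turned between libraries. Of 42 member peaks of replicate 1 with 7 to 12 fragments, 7 recurred (16.7%), against 17.9% of all peaks in that range. From 13 to 16 fragments it was 8 of 21 (38.1%, against 42.3%), from 17 to 22 it was 8 of 11 (72.7%, against 68.5%), and from 23 fragments up 7 of 7, against 91.2%.

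**Figure D4:**
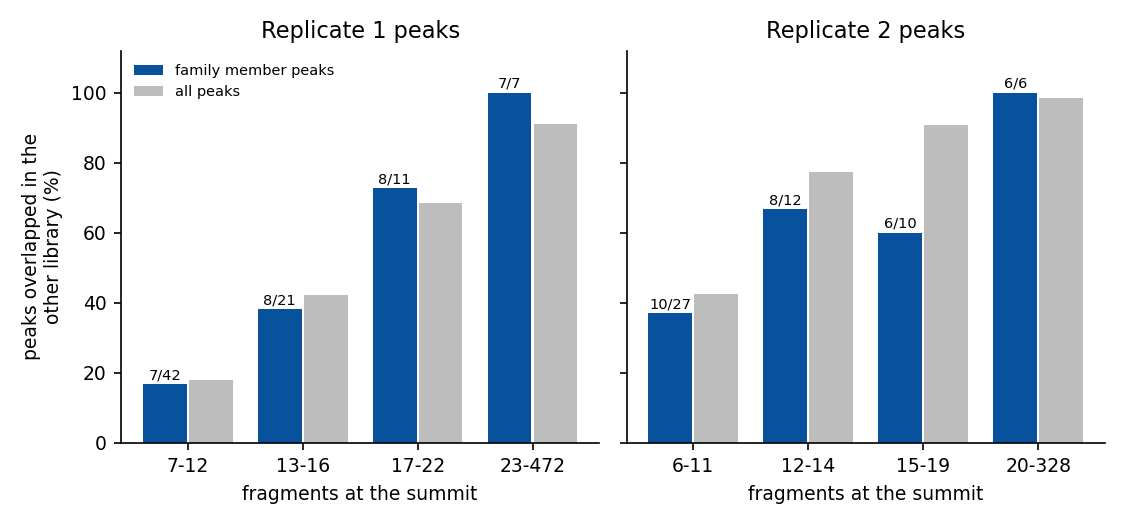
Percent of peaks overlapped in the other library (y axis) by fragments at the summit (x axis, 4 ranges of each list) for family member peaks and for all peaks. Numbers over the bars are overlapped member peaks of all member peaks. In replicate 1 both sets climb with fragments. In replicate 2 members lay below all peaks in each range under 20 fragments, furthest at 15 to 19 (6 of 10, against 90.7%).

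Peaks found in 1 library had fewer fragments in the median, though the ranges overlapped. The 51 replicate 1 member peaks that did not recur had 7 to 20 fragments (median 11), and the 30 that recurred had 8 to 70 (median 16.5). In replicate 2 the 25 that did not recur had 6 to 18 (median 9) and the 30 that recurred 8 to 43 (median 13). A member without a peak, or with one in a single library, was not detected, or not in both, at this depth, which does not show that it was unbound. Among promoter peaks, 13 of 32 recurred in replicate 1 (40.6%, Wilson interval 25.5 to 57.7), against 66.9% of all promoter peaks. In replicate 2 it was 8 of 15 (53.3%, 30.1 to 75.2), against 86.7%. These intervals cover counting only and are no test. Families were picked for low promoter shares in these same lists, and member promoter peaks had fewer fragments. Nothing is therefore read from the distance to all promoter peaks.

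Genes that work with these families were taken from lists written from general knowledge, with earlier results of these data known. Over the 7 lists, 29 of 122 genes had one in both libraries (23.8%, against 20.8% of all genes). For the P450 partners it was 5 of 10, among them POR, the electron donor of microsomal P450s (5.74-fold and 5.8-fold), FDXR, which feeds the mitochondrial ones (5.86-fold and 5.07-fold), and PGRMC2 (7.87-fold and 8.0-fold). For the interleukin pathway it was 6 of 21, with the kinase JAK2 (8.96-fold and 7.76-fold) and the transcription factors STAT3 (7.18-fold and 10.0-fold) and STAT2 (8.48-fold and 6.55-fold). The G protein list had 6 of 19, with ARRB2 (7.25-fold and 5.49-fold) and RIC8B (8.73-fold and 6.32-fold).

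The Kelch-like partners had 4 of 17, with RBX1, the RING subunit of the CUL3 ligase (8.57-fold and 6.98-fold), and CAND1, which exchanges cullin adaptors (8.66-fold and 9.49-fold). CUL3 itself had a promoter peak of 8.1-fold from 37 fragments in replicate 1, and the overlapping replicate 2 peak of 6.16-fold was assigned to LOC102163217. Collagen processing had 4 of 21, with P4HB, a subunit of prolyl hydroxylase (8.51-fold and 9.39-fold), and the chaperone PPIB (6.46-fold and 6.39-fold). The cyclic nucleotide list had 2 of 20, PRKAR1A and RAPGEF3. The keratin partner list had 2 of 14, the junction proteins JUP and PKP2.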

How the data were processed

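The deposited data were 1 peak list for each of 2 CUT&Tag libraries. Peaks were listed by library, and per the submitters' processing notes the build is Sscrofa11.1. No peak caller or aligner is named here. Per the file headers, each peak carries a fold enrichment (a ratio over background), a −log10 p-value and q-value, a score, its class and 1 assigned gene. The score was not used. Deposited −log10 q-values began at 1.31. Chromosome 19 of the files is X.

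Summit fragments k and background b were solved from fold = (k + 1)/(b + 1) and a Poisson upper tail (relative tolerance 1e-05). This succeeded for 99.92% and 99.9% of the peaks of replicates 1 and 2 and for every member peak. The procedure was tested on 487 simulated peaks of replicate 1, of which 100% were recovered. These were built with the same formulas, so that figure checks the solving step only. Of 491 simulated peaks without whole counts, 0% passed the tolerance. Sequencing depth is unknown. The lowest background was 1.21 and 0.979 fragments. Intervals cover counting error only.

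Peaks recurred when they overlapped by at least 1 bp. All genes means 16491 protein-coding entries of the RefSeq table of this build with a unique symbol that is not a LOC number, and all 92 member genes matched. No sequence was used here. Members and lists were chosen with earlier results of these data known. Named are members with a promoter peak in both libraries, the strongest other peaks of each family, the first genes without a peak by alphabet, and partner genes. Other members were named after their values were seen. Since the gene table holds no strand, gene ends stand in for gene starts of neighbours. Alternatives were stricter fold or q-value limits, equal list lengths, reciprocal overlap, other promoter definitions and single libraries. The work used Python 3.11.15 with scipy 1.17.1, pandas 2.3.3 and numpy 2.4.6, and figures were drawn in matplotlib 3.10.9.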

Additional observations from a re-analysis of the deposited data

How the results depend on the processing

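Of 35 recalculated values, 16 stayed close to those reported. The 8 members with a promoter peak in both libraries became 17 with 5′ UTR peaks counted and 24 with any peak within 1 kb of either gene end (all genes: 24.0% and 29.0%). By single libraries there were 15 without replicate 1 and 31 without replicate 2 (all genes: 24.9% and 32.8%). The 33 members with any peak in both libraries became 12 above the median fold of each list, and 53 to 72 with 1 library left out (all genes: 14.1%, and 34.1% to 44.9%). The 37.0% of replicate 1 member peaks that recurred became 52.6% with lists of equal length and 24.7% with a reciprocal overlap of 50 percent (all peaks: 66.6% and 43.8%). The promoter share of 39.5% became 51.7% above the median fold, 52.6% with equal lengths, 53.1% with 5′ UTR peaks and 27.3% in replicate 2 (all peaks: 73.9%, 70.9%, 68.7% and 64.0%). The 3 promoters beside another gene became 5 with 5′ UTR peaks, and 5 to 6 with 1 library left out. The median fold of member promoter peaks, 4.82, became 6.12 above the median fold, 5.52 with equal lengths and 5.77 in replicate 2. For all promoter peaks these were 6.15, 5.65 and 5.25. The fold limit and the equal lengths remove weak peaks by construction. Counting 5′ UTR peaks, or asking for 1 library instead of both, can only add genes. A reciprocal overlap can only lower recurrence. For the other changes the cause was not tested. No paired analysis was possible because there is 1 group. Few fragments per peak, often 7 to 12, limit each single site.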
